A study of Drosophila melanogaster with 39 samples.

Results

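The genes described here encode the proteins of the mitochondrial ribosome of Drosophila melanogaster. They were taken as every gene whose name begins with mRpL or mRpS followed by a number, which gave 73 of the 17559 genes in the count table, 47 named for the large subunit and 26 for the small subunit. Polyadenylated RNA of individual male heads was sequenced from adults of the genotype Cantonized w1118, which all groups share, raised at 25 °C and 60% humidity under a 12 h light and 12 h dark cycle. The heads fell into 5 groups by treatment and by the place preference of the fly: naive Mid (n = 7), naive High (n = 7), shocked High (n = 6), shocked Mid (n = 8) and shocked Low (n = 9), with no naive Low group. Per the labels' protocol, shock was 60 V for 5 min, the preference was scored at 1.5 h and the fly was frozen at 2.5 h. The same protocol text stands on the naive samples, and the labels do not say which place was preferred. Each library is 1 head from 1 fly, and p-values measure the spread between these heads.

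The mitochondrial ribosome is built from ribosomal RNAs made inside the organelle and from proteins encoded in the nucleus, made in the cytosol and imported. It translates the few messages of the mitochondrial genome, all of which encode subunits of the oxidative phosphorylation complexes. Many of its proteins descend from bacterial ribosomal proteins and keep their numbers, while others were added in mitochondria. In mammals, the proteins MRPS18A and MRPS30 sit in the large subunit despite their names. In Drosophila, loss of function of technical knockout (tko), a small-subunit protein of this ribosome, makes flies prone to seizure after mechanical shock.

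Of the 39 labelled samples, 37 had a column in the count table, and shocked High heads 7 and 8 had none. Total counts ranged from 5.01 M to 11.32 M per head (median 7.65 M), with 11399 to 12344 genes detected. The mitochondrial ribosomal protein genes together took 8856 to 21617 counts per head. The heads had the markers of their tissue. The rhodopsin gene ninaE averaged 41874 CPM (read counts scaled to a common library total), the neuronal gene elav 144 CPM and the muscle myosin gene Mhc 1251 CPM. In a bulk head, fewer cells of a type and less RNA per cell cannot be told apart.

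All but 1 of the 73 genes passed the filter on low counts and were tested among 10272 genes. The exception was mRpL53, the gene for a large-subunit protein with no bacterial counterpart, which had a count of 0 in every head. All exon bases of mRpL53 lie within exons of CG33155 on the same strand, and CG33155 itself averaged 3.25 CPM (0.572 to 5.57 CPM over heads). The part of this overlap in the count of 0 was not tested. For 42 of the 73 genes, some exon bases are shared with a gene on the opposite strand, and the sources used here do not state the strand setting of the counting.

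The other 72 genes were expressed at similar, moderate levels. Their mean levels had a median of 20.5 CPM, and 71 of the 72 lay between the quartiles of all tested genes (9.10 and 78.1 CPM). Per kilobase of exon, a scale that allows for the length of each gene, the median was 26.1 CPM per kb, with quartiles of 21.1 and 30.7. The length used was every annotated exon base of a gene over all its transcripts, including bases shared with other genes. Ranks on this scale therefore depend on the annotation. The highest level was 6.86 times the lowest.

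mRpL28, a large-subunit protein with a bacterial counterpart, stood highest at 61.9 CPM per kb. Over the 37 heads its level ranged from 55.0 to 90.8 CPM. mRpS9, a small-subunit protein whose bacterial counterpart reaches toward the tRNA in the peptidyl site, followed at 49.8 CPM per kb. Next came mRpL12 at 43.0 CPM per kb, the stalk protein through which translation factors are recruited to the ribosome. mRpL14 stood at 41.1 CPM per kb and mRpS25 at 41.0 CPM per kb.

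At the low end, mRpL21, with 1696 exon bases and a mean of 15.3 CPM, was at 9.03 CPM per kb, below all others. It was followed by mRpL34 at 12.8, mRpS18B at 14.4, mRpL32 at 14.8 and mRpL37 at 16.2 CPM per kb. mRpL34 was also lowest in CPM, with a mean of 4.18 CPM (1.76 to 6.69 CPM) and as few as 13 counts in a head.

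The median level of the genes named for the large subunit was 26.9 CPM per kb (46 genes), against 24.1 CPM per kb for those named for the small subunit (26 genes). The 42 genes with numbers in the bacterial range had a median of 25.1 CPM per kb and the 30 tested genes with mitochondrial numbers 27.3 CPM per kb. The 11 genes on the X chromosome had a median of 27.5 CPM per kb and the 61 tested autosomal genes 25.3 CPM per kb. These medians are descriptions and were not tested against each other.

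**Figure D1:**
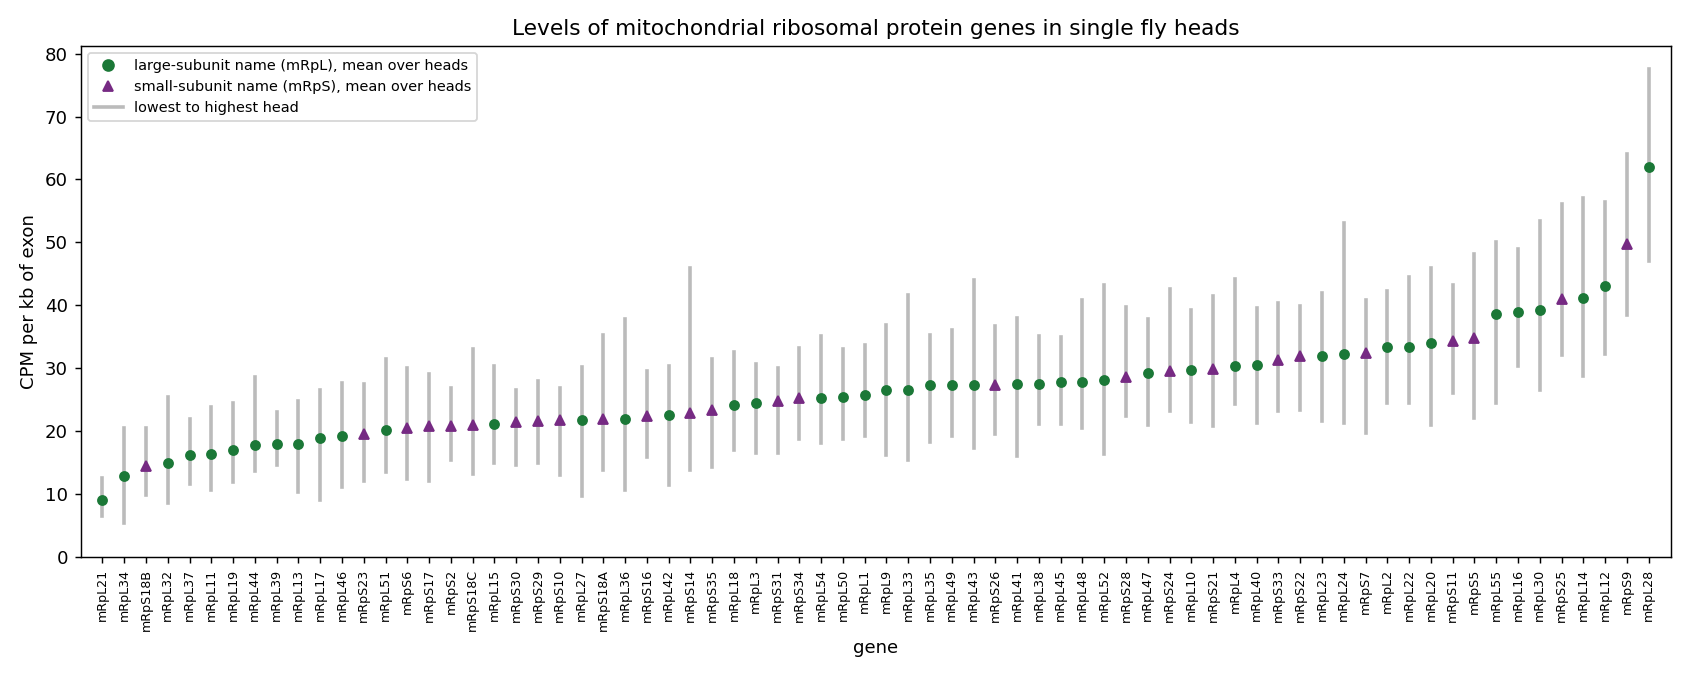
Mean level of each of the 72 tested mitochondrial ribosomal protein genes over 37 heads, in CPM per kb of exon, ordered from mRpL21 to mRpL28 (circles, genes named for the large subunit; triangles, small subunit), with a grey line from the lowest to the highest head. The quartiles of the genes are 21.1 and 30.7 CPM per kb, and mRpS9 and mRpL28 stand above the rest.

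Which of these genes differed between any of the 5 groups was asked first. With edgeR's quasi-likelihood test over all 5 groups and Benjamini-Hochberg adjustment over all tested genes, 0 of the 72 passed an adjusted p of 0.05, while 0.107% of all tested genes did. At an unadjusted p under 0.05 there were 2 of 72, or 2.78%, against 12.2% of all tested genes. These were mRpL13, at an adjusted p of 0.249, and mRpL16, at an adjusted p of 0.369. The next 8 by p were mRpL4, mRpL43, mRpL19, mRpS35, mRpL47, mRpS18B, mRpL9 and mRpL33, with adjusted p from 0.423 to 0.571. DESeq2 and limma-voom also called 0 of the 72 in this test and in each of the other 8 comparisons. DESeq2 gave no adjusted p to 1 of the 72 in this test, to 25 in shock within Mid, to 1 in shocked Low against shocked Mid and to 39 in shocked High against shocked Mid.

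mRpL13 had the smallest p of the list. It encodes the counterpart of a bacterial protein that joins the large subunit early in its assembly, and lies on chromosome arm 2L at 18858028 to 18859248 on the reverse strand (Ensembl 115 gene models, dm6). In naive Mid heads it ranged from 11.3 to 16.6 CPM with a median of 12.5 CPM (mean 13.2 ± 1.91 SD, n = 7). In naive High heads it ranged from 11.1 to 15.4 CPM with a median of 13.4 CPM (mean 13.2 ± 1.69 SD, n = 7). The means of the naive groups differed by far less than their SDs.

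Shocked High heads ranged from 6.87 to 12.9 CPM for mRpL13, with a median of 8.44 CPM (mean 9.04 ± 2.28 SD, n = 6). Shocked Mid heads lay between 9.34 and 14.8 CPM with a median of 10.9 CPM (mean 11.6 ± 1.80 SD, n = 8). Shocked Low heads lay between 8.56 and 16.5 CPM with a median of 13.1 CPM (mean 12.6 ± 2.62 SD, n = 9). Thus 5 of the 6 shocked High heads were below every naive High head, and the remaining head was within the naive range. Of the 8 shocked Mid heads, 5 were below every naive Mid head. Of the 9 shocked Low heads, 5 were above every shocked High head.

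The log2 fold change of mRpL13 with shock was −0.37 (SE 0.10) with High and Mid weighted equally, at an adjusted p of 0.296. Within High it was −0.55 (SE 0.15, adjusted p = 0.694), the 7th smallest p among all tested genes. Within Mid it was −0.19 (SE 0.13, adjusted p = 0.524). The difference between the High and Mid responses was −0.35 (SE 0.20, adjusted p = 0.469). None of these passed the threshold.

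Shocked Low heads differed from shocked High heads in mRpL13 by 0.48 on the log2 scale (SE 0.14, adjusted p = 0.998), and shocked High from shocked Mid heads by −0.35 (SE 0.14, adjusted p = 0.178). The comparisons that include shocked High share the same 6 heads. Leaving out each head in turn moved the equally weighted log2 fold change of mRpL13 between −0.44 and −0.34, with adjusted p from 0.107 to 0.480. The authors' deposited table gives mRpL13 a log2 value of −0.57 between naive High and shocked High with q = 0.261.

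Of the 671 exon bases of mRpL13, 236 are also exon bases of CG10602 on the same strand. CG10602 averaged 60.8 CPM and had an equally weighted log2 fold change with shock of 0.07 (SE 0.05, adjusted p = 0.826). Within groups, the correlation of mRpL13 with CG10602 over the 37 heads was −0.13. The sources used here do not state how reads in the shared bases were assigned, and the part of CG10602 in the mRpL13 values was not tested.

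**Figure D2:**
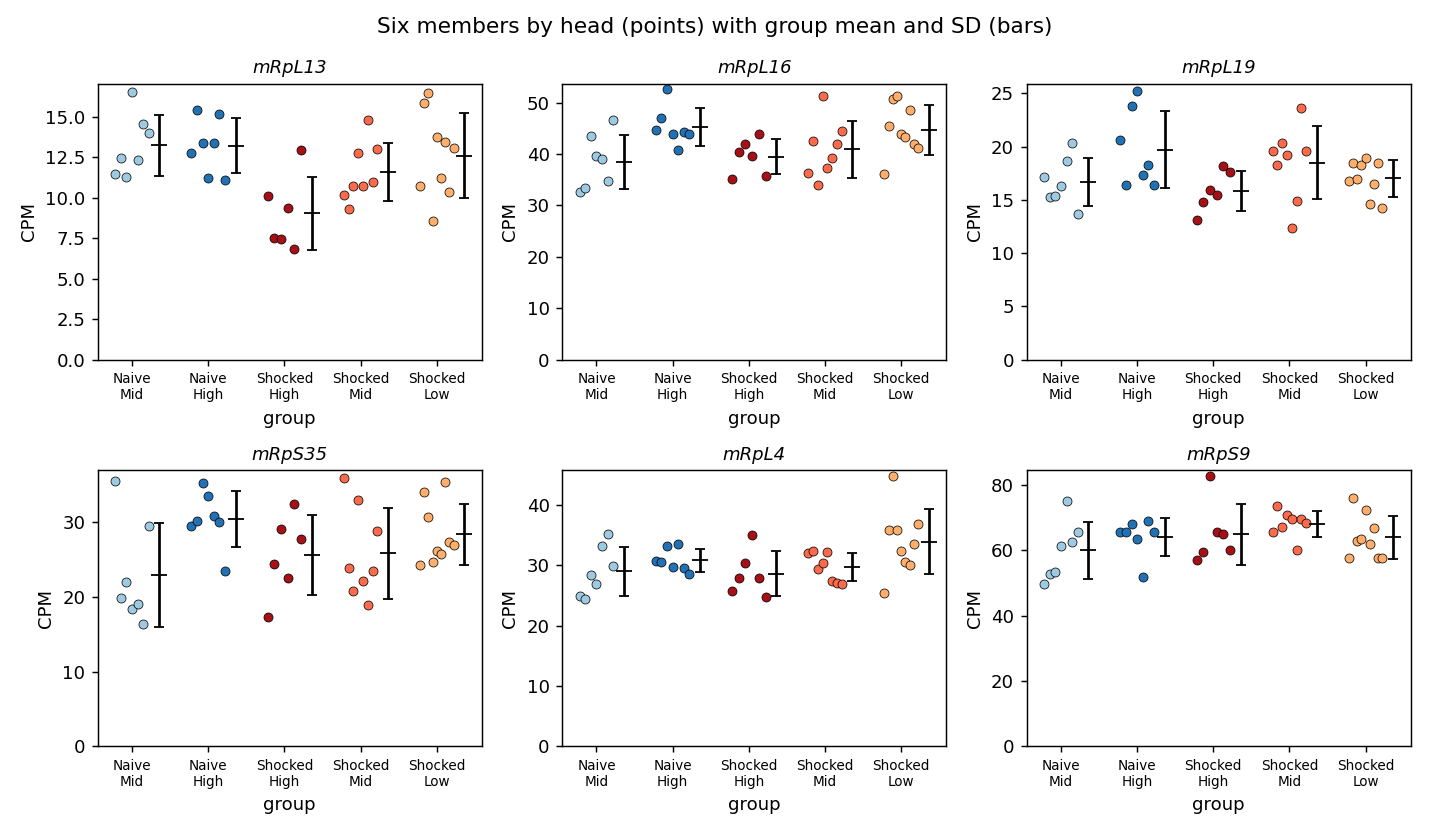
Level in CPM of 6 mitochondrial ribosomal protein genes in each head (points) by group, with the group mean and SD (bars). mRpL13 was lowest in shocked High heads, where 5 of 6 heads lay below every naive High head, and in all 6 genes the groups overlap.

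Shocked heads were compared with naive heads over High and Mid together. The shocked Low heads, which have no naive counterpart, did not enter this contrast. Since the heads were grouped by preference, it is a difference within High and Mid flies, not over all shocked flies. No gene of the list was called, beside 0.00974% of all tested genes. At an unadjusted p under 0.05 there was 1 gene of 72 (1.39%), mRpL13, against 6.3% of all tested genes. The median log2 fold change was −0.01 for the 72 genes and 0.00 for all tested genes, and 30 of 72 were positive. The 95% interval of every one of the 72 lay within a 1.5-fold change in either direction, so that larger mean differences than this lay outside the interval of each gene.

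The next genes by p among those lower after shock were mRpS18B, whose log2 fold change was −0.20 (SE 0.10, adjusted p = 0.793), and mRpL47, with −0.14 (SE 0.08, adjusted p = 0.806). mRpL24 was at −0.15 (SE 0.09), mRpL43 at −0.16 (SE 0.10) and mRpL55 at −0.14 (SE 0.09). mRpS17 was at −0.18 (SE 0.12). The other 3 of the 10 smallest p lay in the opposite direction, with mRpS10 at 0.17 (SE 0.09, adjusted p = 0.802), mRpS29 at 0.15 (SE 0.09) and mRpS9 at 0.10 (SE 0.06). None of these passed the threshold.

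Within High, 0 of 72 genes were called, beside 0% of all tested genes. At an unadjusted p under 0.05 there were 5 genes, or 6.94%, against 5.66% of all tested genes, and all 5 were lower after shock. They were mRpL13, mRpL19, mRpL16, mRpL43 and mRpL55. The median log2 fold change was −0.07 for the list and −0.01 for all tested genes, and 24 of 72 were positive.

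mRpL19 is the counterpart of a bacterial large-subunit protein at the interface with the small subunit. It ranged from 16.3 to 25.3 CPM in naive High heads (median 18.2, mean 19.7 ± 3.61 SD, n = 7) and from 13.1 to 18.2 CPM in shocked High heads (median 15.7, mean 15.9 ± 1.86 SD, n = 6). In naive Mid heads it ranged from 13.6 to 20.3 CPM (median 16.3) and in shocked Mid heads from 12.4 to 23.6 CPM (median 19.4). So 4 of the 6 shocked High heads were below every naive High head, while the Mid groups overlapped widely. The log2 fold change of mRpL19 was −0.31 (SE 0.12, adjusted p = 0.863) within High and 0.15 (SE 0.12, adjusted p = 0.576) within Mid.

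mRpL16, whose bacterial counterpart lies near the peptidyl transferase centre, ranged from 40.8 to 52.7 CPM in naive High heads (median 44.3, mean 45.3 ± 3.71 SD). In shocked High heads it ranged from 35.2 to 43.9 CPM (median 40.0, mean 39.5 ± 3.43 SD). Here 4 of the 6 shocked heads lay below all 7 naive heads. The log2 fold change was −0.20 (SE 0.09, adjusted p = 0.863). For mRpL43 it was −0.30 (SE 0.15) and for mRpL55 −0.27 (SE 0.13), both proteins without a bacterial counterpart and both at an adjusted p of 0.863.

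Other genes of the list lay higher in shocked High heads. mRpL45, a large-subunit protein without a bacterial counterpart, ranged from 28.2 to 34.7 CPM in naive High heads (median 33.1, mean 32.5 ± 2.13 SD, n = 7) and from 30.8 to 41.6 CPM in shocked High heads (median 35.9, mean 36.9 ± 4.03 SD, n = 6). Here 5 of the 6 shocked heads were above every naive High head, as many as lay below them for mRpL13. The log2 fold change of mRpL45 was 0.18 (SE 0.10, adjusted p = 0.863). For mRpL51 it was 0.22 (SE 0.16, adjusted p = 0.877), with 3 of the 6 shocked heads above every naive head, and for mRpL11 0.18 (SE 0.17, adjusted p = 0.907).

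Within Mid, 0 of 72 were called, beside 0.0195% of all tested genes. At an unadjusted p under 0.05 there was 1 gene of 72 (1.39%), against 13.1% of all tested genes. This was mRpS9, which ranged from 49.6 to 75.1 CPM in naive Mid heads (median 61.3, mean 60.0 ± 8.83 SD) and from 60.0 to 73.6 CPM in shocked Mid heads (median 69.0, mean 68.1 ± 4.06 SD). All 8 shocked Mid heads lay inside the naive range. Its log2 fold change was 0.18 (SE 0.08, adjusted p = 0.344). Next by p among higher values were mRpS14 at 0.29 (SE 0.16) and mRpL32 at 0.35 (SE 0.19), and among lower values mRpL13, mRpS17 at −0.20 (SE 0.16) and mRpL39 at −0.11 (SE 0.09). The list had a median of 0.02, beside 0.01 for all tested genes, with 44 of 72 positive.

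The difference between the High and Mid responses to shock was tested as an interaction. Again 0 of 72 were called, beside 0% of all tested genes, and 3 of 72 (4.17%) had an unadjusted p under 0.05, against 12.3% of all tested genes. These were mRpL19 at −0.46 (SE 0.17, adjusted p = 0.294), mRpS14 at −0.53 (SE 0.23, adjusted p = 0.354) and mRpL16 at −0.29 (SE 0.13, adjusted p = 0.357). mRpS14, a small-subunit protein with a bacterial counterpart in the head of that subunit, had 1 shocked Mid head at 36.6 CPM, while the other shocked Mid heads lay between 14.4 and 20.4 CPM. Without that head the interaction of mRpS14 was −0.35. On the positive side mRpL45 was at 0.19 (SE 0.13), mRpL39 at 0.13 (SE 0.13) and mRpL50 at 0.13 (SE 0.17). The interval lay within a 1.5-fold difference for 55 of the 72 genes, fewer than in the other contrasts, with a median SE of 0.18 against 0.09 for the equally weighted shock effect.

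Heads of different preference were compared among naive flies first. No gene was called in naive High against naive Mid heads, beside 0% of all tested genes, and 2 of 72 (2.78%) had an unadjusted p under 0.05, against 3.09% of all tested genes. Both were higher in naive High heads. mRpS35, a small-subunit protein found in mitochondria and not in bacteria, ranged from 16.4 to 35.5 CPM in naive Mid heads (median 19.8, mean 23.0 ± 6.98 SD) and from 23.5 to 35.3 CPM in naive High heads (median 30.2, mean 30.4 ± 3.71 SD). The naive High heads all lay inside the naive Mid range, whose highest head exceeded every naive High head. Its log2 difference was 0.41 (SE 0.15, adjusted p = 1.00).

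mRpL16 was the other gene, with naive Mid heads from 32.6 to 46.5 CPM (median 38.9, mean 38.4 ± 5.26 SD) and a log2 difference of 0.24 (SE 0.09, adjusted p = 1.00). The 7 naive High heads all lay above the naive Mid mean. The naive High heads of mRpL16 and mRpL19 enter both this comparison and the shock comparison within High. In both genes they had the highest mean of the 5 groups. mRpL19 was at 0.24 (SE 0.12) between the naive groups. The smallest p among genes lower in naive High heads belonged to mRpS23 at −0.21 (SE 0.15), mRpS7 at −0.16 (SE 0.13) and mRpL9 at −0.16 (SE 0.13), at an adjusted p of 1.00 each.

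Among shocked heads, High was compared with Mid. No gene was called, beside 0.0681% of all tested genes, and 3 of 72 (4.17%) had an unadjusted p under 0.05, against 17.5% of all tested genes. They were mRpL13, mRpL43 at −0.33 (SE 0.14, adjusted p = 0.214) and mRpL28 at −0.17 (SE 0.08, adjusted p = 0.281), all lower in shocked High heads. mRpL43 ranged from 13.5 to 23.0 CPM in shocked High heads (median 18.1) and from 17.9 to 34.4 CPM in shocked Mid heads (median 21.4). mRpL28 ranged from 60.2 to 75.4 CPM in shocked High heads (median 66.0) and from 66.7 to 90.8 CPM in shocked Mid heads (median 74.3). In each of these 3 genes, 3 of the 6 shocked High heads lay below every shocked Mid head. With single heads left out mRpL43 ran from −0.41 to −0.22 and mRpL28 from −0.20 to −0.13. The smallest p among genes higher in shocked High heads belonged to mRpS18A at 0.19 (SE 0.16), mRpL45 at 0.11 (SE 0.09) and mRpL39 at 0.08 (SE 0.09).

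Shocked Low heads were set against both other shocked groups. Against shocked High, 0 of 72 were called, beside 0% of all tested genes, and 4 of 72 (5.56%) had an unadjusted p under 0.05, against 4.4% of all tested genes. All 4 were higher in shocked Low heads: mRpL13, mRpL4, mRpL47 and mRpL24. mRpL4, whose bacterial counterpart lines the tunnel through which the new chain leaves, ranged from 24.8 to 35.1 CPM in shocked High heads (median 27.9, mean 28.7 ± 3.72 SD) and from 25.4 to 44.8 CPM in shocked Low heads (median 33.5, mean 33.9 ± 5.42 SD). Of the 9 shocked Low heads, 4 lay above every shocked High head. The log2 difference of mRpL4 was 0.25 (SE 0.09, adjusted p = 0.998).

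mRpL47 had a log2 difference of 0.27 (SE 0.11) and mRpL24 of 0.29 (SE 0.13), both at an adjusted p of 0.998. mRpL24 lay between 23.8 and 25.3 CPM in the 6 shocked High heads, with an SD of 0.538 CPM, and 8 of the 9 shocked Low heads lay above all 6 of them, from 24.1 to 46.4 CPM over the group. Among the genes with negative differences the smallest p belonged to mRpS21 at −0.17 (SE 0.13), mRpL23 at −0.13 (SE 0.12) and mRpS6 at −0.10 (SE 0.15).

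Against shocked Mid, 0 of 72 were called, beside 0.0195% of all tested genes, and 2 of 72 (2.78%) had an unadjusted p under 0.05, against 14% of all tested genes. These were mRpS18A at 0.33 (SE 0.14, adjusted p = 0.266) and mRpL4 at 0.19 (SE 0.09, adjusted p = 0.306), both higher in shocked Low heads. mRpL9 was at 0.18 (SE 0.12). With negative differences, mRpL3 was at −0.17 (SE 0.09), mRpL20 at −0.23 (SE 0.13) and mRpL43 at −0.22 (SE 0.13). In none of the 6 comparisons of pairs of groups did any of the 72 genes have groups that did not overlap. The share of all tested genes with no overlap was 0.72% in shocked High against shocked Mid, 0.428% in shock within Mid, 0.0876% in shock within High, 0.0584% in naive High against naive Mid, 0.0292% in shocked Low against shocked High and 0.0195% in shocked Low against shocked Mid.

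**Figure D3:**
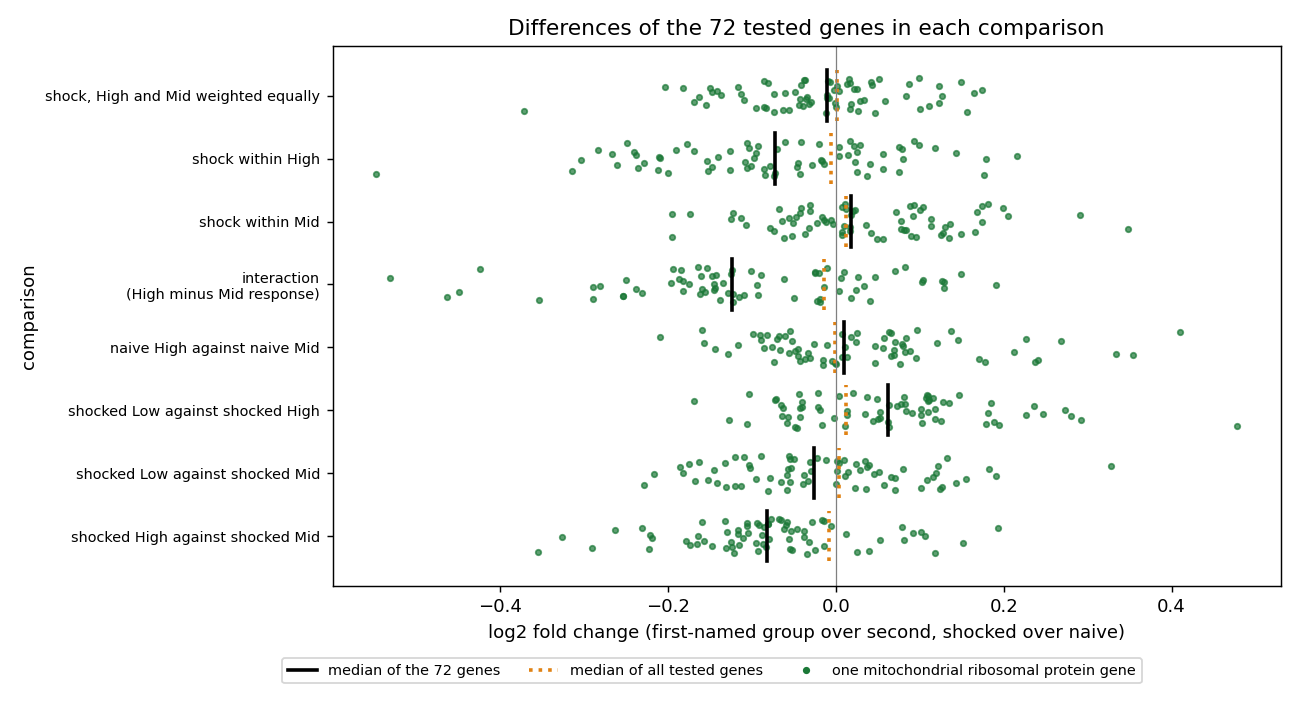
Log2 fold change of each of the 72 tested genes (points) in the 8 contrasts, with the median of the 72 (black bar) and of all tested genes (dotted bar). The medians of the 72 lie between −0.12 in the interaction and 0.06 in shocked Low against shocked High, and mRpL13 is the lowest point in the equally weighted shock contrast, in shock within High and in shocked High against shocked Mid.

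Although no single gene passed, the signs of the 72 were uneven in some comparisons. In shocked High against shocked Mid, 12 of 72 (16.7%) were positive, against 48.2% of all tested genes, and the median was −0.08 against −0.01. In the interaction 18 of 72 (25%) were positive, against 47.7% of all tested genes, with a median of −0.12. Genes named for both subunits took part: in shocked High against shocked Mid the median was −0.09 for the large-subunit and −0.07 for the small-subunit names. These are descriptions, since the genes are correlated across heads and their signs are not separate observations.

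The medians of other gene lists were as follows in the same comparison, with no test of the lists. In shocked High against shocked Mid the median log2 difference was −0.26 for 83 tested cytosolic ribosomal protein genes, −0.10 for 48 nuclear genes of oxidative phosphorylation and −0.63 for 12 genes of the mitochondrial genome. For 9 mitochondrial translation factors it was −0.03, and for 12 mitochondrial chaperones and proteases −0.04. Genes of mitochondrial DNA and RNA maintenance had a median of 0.03, with 8 of 12 positive. For tko and bonsai, 2 genes of this ribosome under other names, it was 0.05, with both positive. The median was 0.18 for 8 pan-neuronal markers, of which all 8 were positive. The 8 muscle markers (median 0.13) and the 8 photoreceptor markers (median 0.08) were also all positive, the haemocyte markers had a median of 0.25 with 6 of 8 positive, and the glial markers a median of −0.06 with 1 of 8 positive. No gene of these lists was called, beside 0.0681% of all tested genes. At an unadjusted p under 0.05 by edgeR there were 51 of 83 cytosolic ribosomal protein genes and 9 of 12 mitochondrial genome genes. For the oxidative phosphorylation genes it was 4 of 48, and for all tested genes 17.5%. Genes within a list are correlated across heads, so these counts are descriptions. The mitochondrial genome had 2 shocked High heads below every head of the other groups, with a mean log2 CPM of 5.86 and 7.05 over its 12 genes, against a group median of 8.54.

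Markers of the fat body, which surrounds the brain in the head, differed most of the 6 cell type lists. Of 8 listed, 6 were tested, all 6 were lower in shocked High than in shocked Mid heads, and Lsp2, a storage protein, passed the test. The median log2 difference of the 6 was −1.01, and their mean log2 CPM ran from 4.79 to 6.46 in shocked High and from 6.13 to 8.26 in shocked Mid heads. The mean log2 CPM of the pan-neuronal markers ran from 8.39 to 9.15 in shocked High and from 8.64 to 8.85 in shocked Mid heads. The part of these cell types in the signs of the 72 genes was not tested.

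The relation of level to transcript length also differed between these groups. The slope of a head's deviation in log2 CPM on log2 exon length was computed over 10005 tested genes outside the list, and ranged from −0.10 to 0.10 per doubling of length. The mean slope was −0.05 in shocked Mid and 0.03 in shocked High heads, a difference that passed an exact 2-sided permutation test over heads (p = 0.00599, 0.018 adjusted over 6 pairs of groups). The slope in shocked Mid heads was also below that in naive Mid heads (adjusted p = 0.0112) and in shocked Low heads (adjusted p = 0.0296), by the same exact test. The 73 genes are short, with a median exon length of 783 bases against 2035 for all tested genes. The slope and its test were added once the data had been seen.

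With the slope as a term in the fit, a choice made once the data had been seen, the median of the 72 in shocked High against shocked Mid was 0.03 in place of −0.08, and 42 of 72 were positive in place of 12. In the interaction the median was 0.02 in place of −0.12, and 39 were positive in place of 18. Within Mid, 21 of 72 were positive in place of 44, and the median was −0.05 in place of 0.02. Within High, 30 were positive in place of 24, and the median was −0.02 in place of −0.07. In shocked Low against shocked Mid, 49 were positive in place of 34, and the median was 0.06 in place of −0.03. In shocked Low against shocked High 42 were positive in place of 49, in naive High against naive Mid 35 in place of 39, and for the equally weighted shock effect 22 in place of 30. No gene of the list was called in this fit either. In shocked High against shocked Mid, mRpL43 was at −0.13 (adjusted p = 0.952) and mRpL28 at −0.05 (adjusted p = 0.965). For mRpL13 the equally weighted log2 fold change with shock was −0.39 in this fit, against −0.37 without the covariate. Because the slope itself differs between the groups compared, this fit cannot tell slope and group apart. The part of transcript length in the signs of the 72 genes was not tested.

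The mean log2 CPM of the 72 genes gives 1 value per head. It averaged 4.37 ± 0.08 SD in naive Mid heads, 4.40 ± 0.08 in naive High, 4.33 ± 0.06 in shocked High, 4.41 ± 0.09 in shocked Mid and 4.39 ± 0.12 in shocked Low. Over all 37 heads it ranged from 4.23 to 4.58, a 1.27-fold range. The group means lay closer together than the heads within a group, whose SD was 0.09. In naive Mid heads the value ran from 4.25 to 4.47, in shocked High heads from 4.23 to 4.41 and in shocked Low heads from 4.24 to 4.58, so the groups overlapped.

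Single genes varied between heads of a group by a median SD of 0.24 on the log2 scale, beside 0.25 for all tested genes. Within the middle range of the list's levels, 15.6 to 27.5 CPM, the median SD was 0.23 for 36 genes of the list and 0.24 for 1346 other genes. The smallest SDs belonged to mRpL28 (0.16), mRpS9 (0.16), mRpL39 (0.16), mRpL16 (0.16) and mRpL45 (0.17). The largest belonged to mRpL34 (0.42), mRpL42 (0.36), mRpL32 (0.36), mRpL27 (0.33) and mRpL52 (0.32). Each gene's SD was 1.39 to 3.20 times the SD that counting error alone would give at its mean count.

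Within groups, the genes of the list were weakly correlated. Over 37 heads the median correlation of a pair was 0.14, and 75.9% of 2556 pairs were positive, while over all tested genes the median was −0.00235 and 49.6% were positive. With the length slope removed from each gene, the median was 0.08 and 64.8% were positive. Under the same measure the 83 cytosolic ribosomal protein genes had a median pair correlation of 0.81, the 48 nuclear oxidative phosphorylation genes 0.47 and the 12 mitochondrial genome genes 0.88. The heads share depth and composition across genes, and counting error lowers the correlation of genes with few counts, so these values are descriptions.

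Of the 72 genes, 70 had a positive correlation with the mean of the other 71. The closest were mRpS26 (0.69), mRpL30 (0.65), mRpL16 (0.65), mRpS29 (0.64), mRpL24 (0.64) and mRpL15 (0.63), genes of both subunits. mRpS29 is the counterpart of the human protein DAP3, which binds GTP. At the other end, mRpS5 had a correlation of −0.14 and mRpL35 of −0.03. mRpS5, whose bacterial counterpart lies at the entry of the mRNA channel, was among the most counted genes of the list, with a mean of 455 counts per head. Its level averaged 58.5 CPM with a highest head at 81.0 CPM, and it was at 61.3 ± 6.01 SD in naive Mid, 59.0 ± 11.4 in naive High, 57.2 ± 11.6 in shocked High, 59.9 ± 4.92 in shocked Mid and 55.6 ± 8.01 CPM in shocked Low heads.

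**Figure D4:**
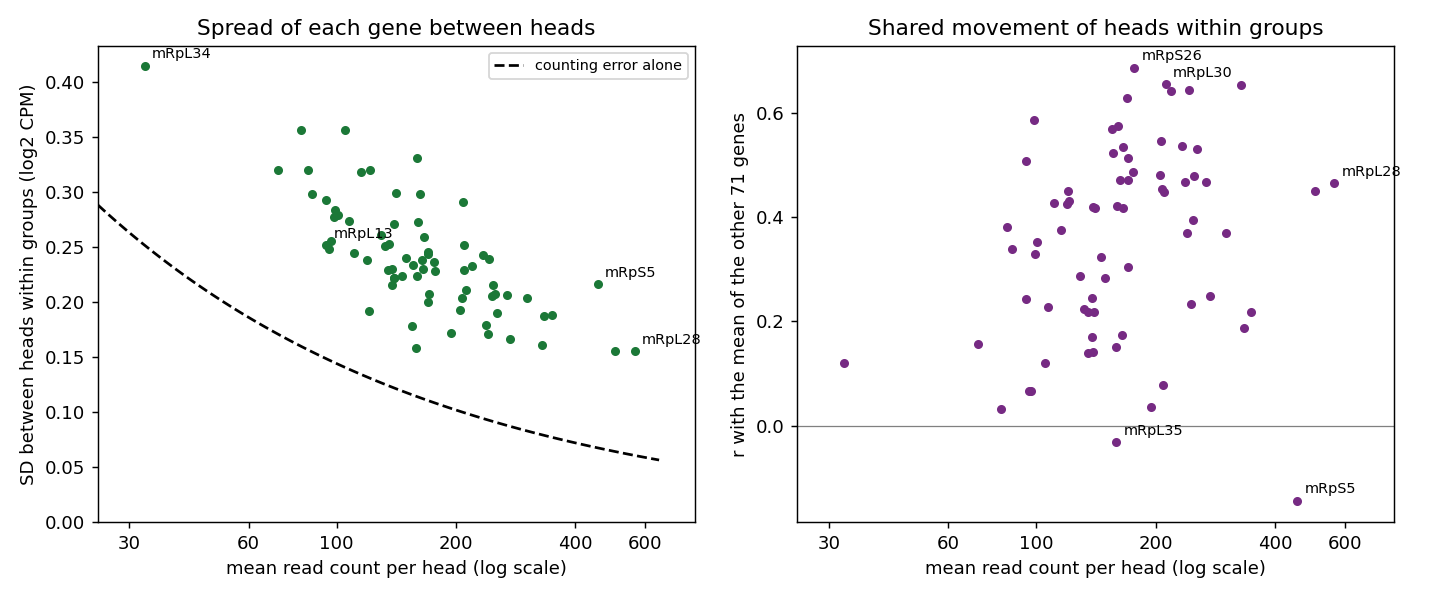
Left, SD between heads within groups (log2 CPM) against mean read count per head (log scale) for each of the 72 tested genes, with the SD from counting error alone (dashed). Right, the correlation within groups of each gene with the mean of the other 71 over 37 heads. Here mRpS5, with a mean of 455 counts, lies at −0.14 and mRpS26 is highest at 0.69.

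The mean of the list was set against other gene lists in the same heads, with group means removed. It correlated with the nuclear oxidative phosphorylation genes at r = 0.77 (rho = 0.72, n = 37 heads), and r was 0.76 without the 2 heads farthest out. Within each of the 5 groups r lay between 0.53 and 0.98. For mitochondrial chaperones and proteases r was 0.63 (rho = 0.67; 0.62 without 2 heads), and for the cytosolic ribosomal proteins 0.47 (rho = 0.47; 0.41 without 2 heads). With the genes of the mitochondrial genome r was 0.02 (rho = 0.10), and 0.16 without the shocked High head whose mitochondrial genome genes were lowest. It was 0.21 without 2 heads, and by group it ran from −0.61 in shocked High to 0.58 in shocked Low heads.

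With the pan-neuronal markers r was −0.68 (rho = −0.76; −0.74 without 2 heads), between −0.91 and −0.67 in each group. With the length slope r was −0.70 (rho = −0.71; −0.68 without 2 heads), between −0.79 and −0.69 in each group. With total count r was 0.05, and by group from −0.58 in shocked High to 0.78 in naive High heads. For the remaining cell type markers r was 0.21 for photoreceptor, 0.16 for haemocyte (−0.07 without 2 heads), −0.14 for muscle, −0.18 for glial and −0.19 for fat body genes. Each of these lists changed sign between groups, with haemocyte genes running from −0.68 in naive Mid to 0.74 in naive High heads. Their part in the shared movement of the list was not tested. The list was set against 15 such measures in all, and the correlations are descriptions over heads that share depth and composition.

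**Figure D5:**
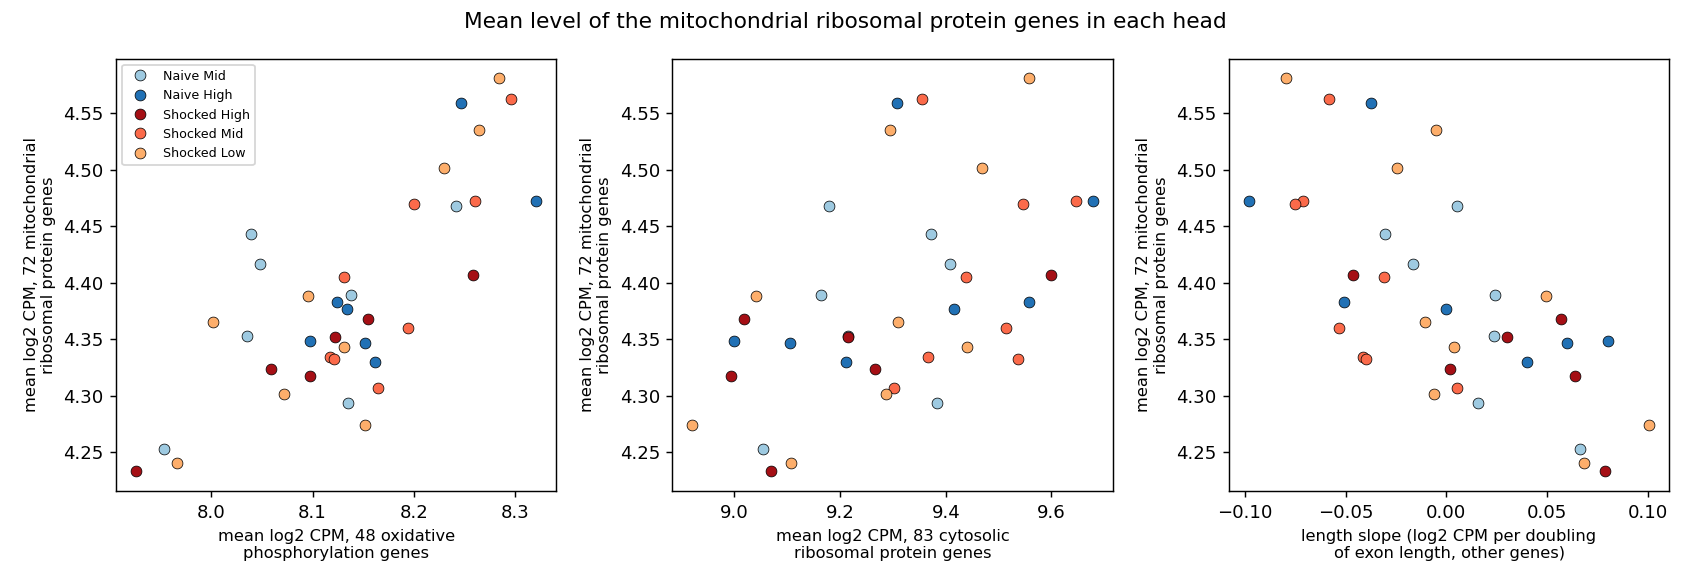
Mean log2 CPM of the 72 tested mitochondrial ribosomal protein genes in each of 37 heads (vertical axis) against the mean log2 CPM of 48 nuclear oxidative phosphorylation genes, the mean log2 CPM of 83 cytosolic ribosomal protein genes and the length slope (horizontal axes), coloured by group. Within groups r was 0.77, 0.47 and −0.70. The heads of the 5 groups overlap, while shocked Mid heads had the lowest mean length slope (−0.05) and the highest mean of the cytosolic ribosomal protein genes (9.46).

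The genes of 2 proteins of the same ribosome under other names were not called either. tko averaged 30.6 CPM (22.6 to 45.0 CPM) and had an equally weighted log2 fold change with shock of −0.07 (SE 0.08, adjusted p = 0.904). Its group means ran from 29.6 ± 3.23 SD in shocked Mid to 32.0 ± 4.36 CPM in naive High heads, a difference smaller than the SD of either group. bonsai, which encodes another small-subunit protein, averaged 25.0 CPM, with −0.03 (SE 0.08, adjusted p = 0.966). Its group means ran from 23.0 ± 3.86 SD in naive Mid to 28.4 ± 2.24 CPM in naive High heads, a difference larger than the SD of either group. In naive High against naive Mid, 1 of the 2 genes had an unadjusted p under 0.05 by edgeR, beside 3.09% of all tested genes. The mean of this pair followed the mean of the list across heads within groups at r = 0.67.

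Other genes of mitochondrial gene expression were taken from lists by function. They held 9 tested mitochondrial translation factors of 11 listed, 12 tested genes for maintenance of mitochondrial DNA and RNA and 12 tested chaperones and proteases. Of these, 0 passed in either direction in any comparison, beside 0% to 0.107% of all tested genes by comparison. The median log2 fold changes of these lists with shock were −0.03, 0.09 and −0.02 with High and Mid weighted equally. In shock within Mid the median was 0.11 for the nuclear oxidative phosphorylation genes and 0.46 for the genes of the mitochondrial genome, beside 0.02 for the 72 genes. Of the 48 and 12 genes in these lists, 0 passed in shock within Mid, beside 0.0195% of all tested genes. At an unadjusted p under 0.05 by edgeR there were 5 of 48 and 7 of 12, against 13.1% of all tested genes. Positive values were held by 46 of 48 and 12 of 12, against 52.6% of all tested genes.

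In the authors' deposited table, 72 of the 73 genes were listed, and 0 had a q under 0.05 in any of its 10 pairwise comparisons. The smallest q of these 72 in the authors' deposited table was 0.238, in shocked High against shocked Mid, where 3.29% of all listed genes had a q under 0.05. In naive Mid against shocked Mid the authors' deposited table gave 1.77% of all listed genes a q under 0.05, and 0 of the 72.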

How the data were processed

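Per the series' design text and the submitters' processing notes, the authors purified mRNA with oligo dT beads, trimmed the reads with Trimmomatic, mapped them to dm6 with STAR, removed reads with a mapping quality below 8 and non-primary alignments, obtained exon read numbers from HTSeq-count and used DESeq2. The deposited values are unnormalized read counts per gene, and the authors' deposited table gives log2 values and q-values. The extract protocol calls the libraries nuclear RNA-seq, although total RNA from heads was used. The sources used here give no tool versions and no strand setting. The labels give 1 batch date for all samples, and 2 columns that match no labelled sample were not used.

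Counts of 37 heads were fitted in R 4.3.3 with edgeR 4.0.16 (filterByExpr by group, TMM factors, quasi-likelihood F tests, no covariates, all 5 groups in 1 fit), with Benjamini-Hochberg adjustment over 10272 genes at 0.05. Levels are CPM on TMM library sizes, log2 CPM used a prior count of 2, and SE is the log2 fold change over the root of F. Group sums and correlations used Python 3.11.15, and gene models came from Ensembl 115, where 71 genes matched by ID and 2 by symbol. The fit was tested on simulated data. Alternatives were DESeq2 1.42.0, limma 3.58.1 with voom quality weights, size factors, no filter, total count or length slope as a covariate, a replicate block, only the groups compared, and each of 37 heads left out. The number of counts limits the precision of low genes.

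The genes and the comparison lists were chosen with earlier results of these data known. Genes named were, per comparison, those with the smallest p (10 overall and for the equally weighted shock effect, otherwise 3 in each direction), and the 5 highest and 5 lowest by level per kb and by spread. Genes named for their correlation (mRpS5, mRpL35, mRpS26, mRpL30 and mRpL15) were chosen after their values were seen.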

Additional observations from a re-analysis of the deposited data

Results flagged for a closer look

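A head was listed where its gap to the nearest head of its group was large against the group's range, by Dixon's test at the 95% level. Among 210 tests of the named genes and the list mean in the 5 groups, 10 values (4.76%) were listed, and chance gives about 1 in 20. The 10 values fell in 9 different heads, and shocked Mid head 1 had 2 of them.

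In naive Mid, mRpL33 was at 11.96 CPM in head 3, with the next head at 9.05 CPM. In naive High, mRpL55 was at 11.1 CPM in head 2 while all other heads were at 18.7 CPM or above, and mRpS9 was at 51.8 CPM in head 5 while all others were at 63.7 CPM or above. In the same group mRpS18B reached 17.7 CPM in head 6, above the next head at 13.7 CPM, and mRpS25 reached 30.1 CPM in head 3, above 26.1 CPM.

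In shocked High, mRpS9 was at 82.9 CPM in head 3, above the next head at 65.6 CPM. Head 3 is also the shocked High head with the lowest level of mitochondrial genome genes, at a mean log2 CPM of 5.86. In shocked Mid, head 1 held the highest value both of mRpS14 (36.6 CPM, next 20.4 CPM) and of mRpL52 (22.4 CPM, next 16.8 CPM), and mRpL47 was at 19.4 CPM in head 6, below the next head at 25.4 CPM. In shocked Low, mRpL24 was at 46.4 CPM in head 2, with the next head at 33.3 CPM.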

How the results depend on the processing

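In all 45 alternative settings 0 of the 72 genes passed the threshold in any comparison. Of the values that answer a comparison, 800 kept their direction or moved by less than the spread. These include the medians of shock within Mid and of shocked Low against shocked Mid, which changed sign with the length slope as a covariate. The other 3 moved. With the length slope as a covariate, a choice made once the data had been seen, the median log2 fold change was 0.0245 in the interaction and 0.0270 in shocked High against shocked Mid, and with that slope removed the median pair correlation was 0.0778. Of the values of single genes 2779 kept their direction or stayed uncalled, and mRpS6 in shocked Low against shocked High was at −0.10, with a range of −0.170 to 0.0236 over the heads left out, the latter without shocked High head 4. Leaving out single heads gave 13 to 22 positive genes in the interaction and 12 to 22 in shocked High against shocked Mid. Heads with the same number in the sample title had a median correlation of 0.0176 over 67 pairs, against −0.00065 over 478 pairs with different numbers. With these numbers as a replicate block, the median of the 72 was −0.01 for the equally weighted shock effect. It was −0.08 in shocked High against shocked Mid. In some heads the title number differs from the library number, and pairing by library number was not tested. Calls over all genes depended on the setting: in shocked High against shocked Mid 7 genes passed, 0 with the length slope, 310 by DESeq2, 668 by limma-voom and 748 with the replicate block, and 0 to 548 with a head left out. Over the alternatives other than single heads left out, shocked Low against shocked Mid gave 0 to 150 genes, shock within Mid 1 to 21, the equally weighted shock effect 1 to 8 and the test over 5 groups 1 to 88. Depth limited the lowest genes most, mRpL34 having 13 counts in a head.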
